A study of Jaculus jaculus with 29 samples.

Results

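The supraoptic nucleus of the lesser Egyptian jerboa (Jaculus jaculus), a desert rodent, was described here in animals with free access to water. The 10 libraries labelled Control were taken out of the 29 RNA-seq libraries of the study, and no comparison with a treated group was made. Control jerboas lived in single cages at 25 °C under a 12-hour light cycle, ate dry food and had water at all times. The study's other animals had their water restricted for 11 days (Dehydrated), or for 7 days with 3 days of water afterwards (Rehydrated), and their libraries entered the gene filter and the scaling only. Per the labels each sample is 12 bilateral punches of 1 mm taken from 100 µm frozen coronal sections, so it holds neurons, glia, vessels and some neighbouring tissue, and polyadenylated RNA was read. The labels state no age or strain.

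The supraoptic nucleus is a compact hypothalamic nucleus of large (magnocellular) neurosecretory neurons. Each neuron makes mainly vasopressin or mainly oxytocin as part of a larger precursor, cuts the precursor inside dense-core granules, and sends the granules down its axon to the posterior pituitary. Vasopressin makes the kidney keep water, and oxytocin acts in milk ejection, birth and, in rodents, sodium excretion. Astrocytes, local GABA and glutamate inputs and opioid peptides released by the same neurons are known to shape their firing.

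Libraries are called here by the names the authors gave them (F01, F02, F03, F05, F06, M01, M03, M04, M05 and M06). The sex labels give 5 females and 5 males. For 2 of the 10 libraries (F03, labelled male, and M05, labelled female) the letter in the name is not that of the labelled sex. The sample titles of these 2 also go against the sex label, with F03 titled female and M05 titled male. Labelled sex here means the sex label and not the title. Total counts ran from 10797577 in M01 to 17834438 in M03, so that 3 counts in a library equal 0.167 to 0.286 counts per 1000000 (CPM). M01 stood apart: its Pearson correlation with the other libraries over log2 CPM had a median of 0.863, against medians of 0.968 to 0.98 for the others, and 7.07% of its counts fell on 2 contigs rich in repeats (6.62% in F03, 0.573% to 1.22% in the rest). Over the 15137 genes whose mean log2 CPM reached 1, M01 was highest in 32.3% and lowest in 34.9%, and where a result turns on M01 its value is given beside the range of the other 9. Levels within a gene are in CPM, and levels are set between genes only as CPM per kb of exonic length, called the level per kb. Values are mean ± SD over the 10 libraries unless another n is given.

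Avp, the vasopressin precursor gene, and Oxt, the oxytocin precursor gene, lie on chromosome 8 of the mJacJac1 assembly on opposite strands, Oxt at 82190535 to 82191331 on the plus strand and Avp at 82219571 to 82221324 on the minus strand, with 28239 bases between them. Pdyn, the gene of prodynorphin, from which the dynorphin opioids are cut, lies on the same chromosome at 80690097 to 80717661 on the minus strand. Avp was at 1098 CPM in F01, 849.8 in F02, 1202 in F03, 411 in F05, 801 in F06, 944 in M01, 433 in M03, 359 in M04, 2423 in M05 and 822 in M06. M05 lay highest, and F05, M03 and M04 formed the low end. Oxt was at 1975 CPM in F01, 1129 in F02, 819.5 in F03, 474 in F05, 709.7 in F06, 1372 in M01, 441 in M03, 283 in M04, 1075 in M05 and 480.1 in M06. F01 was highest for Oxt, and M04 was lowest for both hormones. Pdyn was at 84 CPM in F01, 50.6 in F02, 55.2 in F03, 45.7 in F05, 57 in F06, 68.4 in M01, 73.5 in M03, 52.9 in M04, 64.1 in M05 and 92.2 in M06, a narrower band with M06 at its top. All 3 precursors that mark the nucleus were thus present in all 10 libraries.

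**Figure D1:**
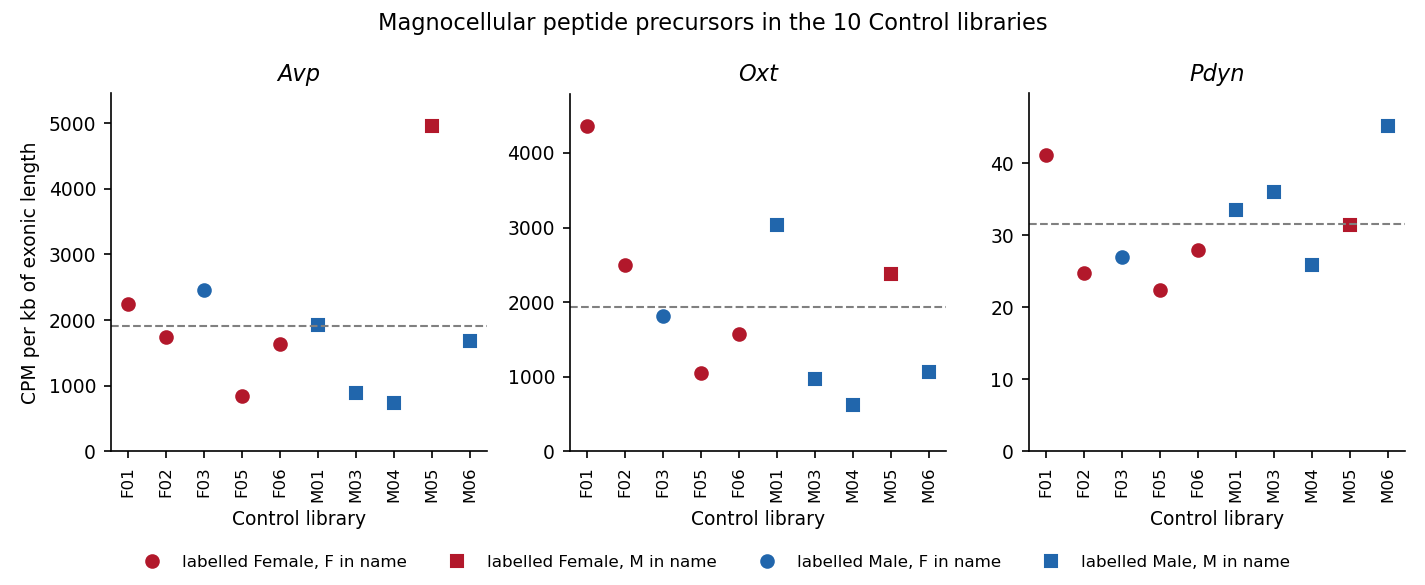
Level per kb (CPM per kb of exonic length) of Avp, Oxt and Pdyn, each on its own axis from 0, with 1 point per Control library (red, labelled female; blue, labelled male; circles, F in the name; squares, M in the name) and a dashed line at the mean. Avp runs from 733 to 4954 with M05 at the top, Oxt from 625 to 4360 with F01 at the top, and Pdyn from 22.4 to 45.2.

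The SD of log2 CPM over the 10 libraries was 0.83 for Avp, 0.87 for Oxt and 0.33 for Pdyn. Counting error alone would give 0.01, 0.01 and 0.05. The median SD over those 15137 genes was 0.30, and the 90th percentile was 0.65. Both hormone precursors lay beyond that percentile, and Pdyn lay near the median. In bulk punches fewer cells of a type and less RNA per cell cannot be told apart, and neither can be told apart from how much of the nucleus a punch took.

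Per kb, Oxt was at 1933 ± 1151 (lowest 625, median 1688, highest 4360) and Avp at 1911 ± 1221 (lowest 733, median 1709, highest 4954). The ratio of Avp to Oxt on the log2 scale averaged -0.01 ± 0.63. It was above 0 in 5 libraries and below 0 in 5, from -0.96 in F01 to 1.06 in M05, and an exact two-sided sign-flip permutation test over the 10 libraries gave p = 0.957 (also after Benjamini-Hochberg adjustment over 15 gene pairs). Neither hormone precursor was therefore above the other beyond the spread between libraries. Pdyn was at 31.5 ± 7.42 per kb. Oxt was 53.5-fold above it (mean log2 ratio 5.74 ± 0.85, higher in 10 of 10 libraries, adjusted p = 0.00326 by the same exact test, whose smallest unadjusted p is 0.00195). The exonic lengths used were 453 bases for Oxt, 489 for Avp and 2042 for Pdyn. Exonic length and mappability do not drop out of the ratio of any gene pair. An error in them would shift all 10 libraries alike, so the p-values of the pairs do not cover it.

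Across libraries Avp and Oxt were related with Pearson's r = 0.73 (two-sided permutation p = 0.0161, adjusted p = 0.194 over 12 gene pairs, n = 10) and Spearman's rho = 0.79 (permutation p = 0.00805, adjusted p = 0.0966). Without the 2 libraries farthest from the median of Avp, M05 and M04, r was 0.72, and with each library expressed as its deviation from the mean of its name letter r was 0.76. The pair did not pass the adjusted threshold of 0.05. No pair of the 12 passed it for r or rho. Avp with Gad2, the GABA-making enzyme gene, had r = -0.34 (adjusted p = 0.896) and rho = -0.75 (permutation p = 0.0172, adjusted p = 0.103). Pdyn was at r = 0.28 with Avp and 0.25 with Oxt, with adjusted permutation p = 0.896 for each. All pairs share the same libraries, dissections and depth.

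Among genes with a name, the highest levels per kb belonged to mitochondrial transcripts, the hormone precursors and glial genes. COX3, COX1 and COX2, subunits of cytochrome c oxidase encoded in the mitochondrial genome, were at 8700.2, 6518 and 4689.9 per kb. Apoe, the lipid carrier made mainly by astrocytes, was at 2479 ± 664 per kb, the highest of the named nuclear genes. Oxt and Avp came 10th and 11th of all 17558 genes kept. Sparcl1, a matrix protein of astrocytes, was at 1341 ± 145 per kb. Ubb (1300.4 per kb), a ubiquitin gene, Hspa8 (1094), a constitutive chaperone, Aldoa (1077), a glycolytic enzyme, Calm2 (1061), a calmodulin gene, and Saraf (906), a regulator of store-operated calcium entry, were also among the 20 highest.

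By share of all counts, which also depends on gene length, COX1 took 1% and COX3 0.675%. Sparcl1 took 0.357%, Apoe 0.316% and Peg3, a paternally expressed zinc finger gene, 0.233%. The 10 most counted genes held 4.34% of the counts, the first 100 held 16% and the first 1000 held 45%. At least 1 CPM in every Control library was reached by 14777 genes. The counts in the mitochondrial genome were 2.9% to 4.49% of a library.

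**Figure D2:**
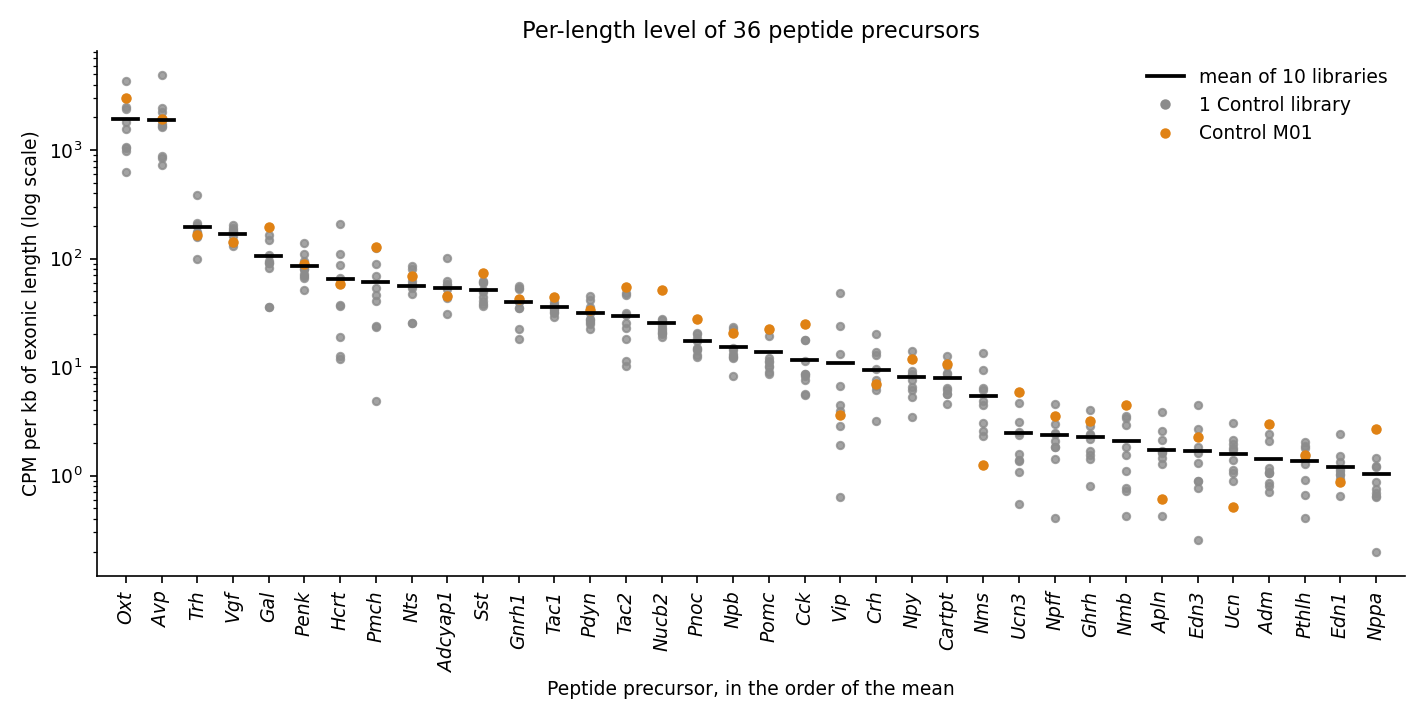
Level per kb of exonic length, on a log axis, of the 36 peptide precursor genes that were set in order, by their mean, with 1 grey point per Control library (M01 in orange) and a bar at the mean. Oxt (mean 1933) and Avp (mean 1911) lie clear above Trh (mean 194), and the libraries of each later neighbour overlap.

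Of 64 genes in the peptide precursor lists, 36 passed the filter and were set in an order per kb. A further 7, among them Agt, Scg5 and Dbi, passed the filter but were left out of the order. Later counts over 17 and 18 measured precursors are over the full lists, these genes included where they reached the minimum level. After Oxt (1933) and Avp (1911) came Trh at 194 ± 75.6, Vgf at 168 ± 23.3, Gal at 105 ± 52, Penk at 85.3 ± 25, Hcrt at 64.7 ± 60 and Pmch at 60.6 ± 42.5. Trh encodes thyrotropin-releasing hormone, Vgf a granule protein cut into several peptides, Gal galanin, Penk the enkephalin precursor, Hcrt orexin and Pmch melanin-concentrating hormone. Nts (56.2 per kb), the neurotensin gene, Adcyap1 (54), which encodes PACAP, Sst (51.6), somatostatin, Gnrh1 (39.6), gonadotropin-releasing hormone, and Tac1 (35.4), substance P, were next. Pdyn was 14th and Tac2, the neurokinin B gene, 15th at 29.9. Further down were Cck, cholecystokinin, at 11.6 per kb, Crh, corticotropin-releasing hormone, at 9.37, and Cartpt, the CART peptide precursor, at 7.99.

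Only 1 neighbouring pair in that order had the same direction in all 10 libraries, Avp above Trh, by 3.16 ± 0.88 on the log2 scale. In every other neighbouring pair at least 1 library had the reverse order, so the places from Trh down are an order of means only. Without M01, 8 of the first 12 precursors stayed at their place. Trh was between 141 CPM (M04) and 307 CPM (F01) in 9 libraries and at 555 CPM in M06, with a median of 249. M06 was also highest for Adcyap1, at 225 CPM against a median of 109.6. Gal was at 19.9 CPM in F03 and 20.1 in M06, with a median of 52.3 and a highest value of 109 in M01.

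Of the 36 precursors, Vip, Pmch and Hcrt had the largest SD of log2 CPM (1.70, 1.40 and 1.35), and all 3 are known best from cell groups beside the supraoptic nucleus. Vip, the vasoactive intestinal peptide gene, which marks the core of the suprachiasmatic nucleus, was at 30.3 CPM in F05, 15.1 in M05 and 8.27 in F06, and at 0.401 (F03) to 4.26 (F02) in the other 7. F05 and M05 thus stood above the median of 2.66 CPM. Hcrt, a gene of the lateral hypothalamus, was at 80 CPM in F01, 42.6 in F03 and 33.2 in M04, with a median of 18.3 and a lowest value of 4.59 in F02. Pmch, made by other neurons of the same area, was at 94.8 CPM in M01 and 92 in M06, at 64.8 in M04, with a median of 36.8 and a lowest value of 3.57 in F06. F01 was highest in Hcrt and M01 in Pmch, and M04 was above the median of both.

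Of the genes of prohormone processing, Cpe, the carboxypeptidase that trims cut peptides, was at 623 ± 47.3 per kb, Pcsk1n, a convertase inhibitor, at 474 ± 92.5, Scg5, the chaperone of convertase 2, at 181 ± 36.7 and Pam, which amidates peptides such as vasopressin and oxytocin, at 133 ± 16.4. The 12 genes of the list summed to 3269 CPM in M04 and 3861 in F01, with a median of 3475, and their median SD of log2 CPM was 0.25. Without M01 that median was 0.20, and 6 of the 12 were above the median over all genes without M01 (0.21). Pcsk2, the convertase of later processing, was above Pcsk1, the convertase of earlier steps, in 10 of 10 libraries (55.2 ± 15.2 against 36.5 ± 10.8 per kb, 1.53-fold, log2 ratio of Pcsk1 to Pcsk2 -0.62 ± 0.29, adjusted exact permutation p = 0.00326). Both convertases were lowest in M01, at 62.9 CPM for Pcsk2 (147 to 226 elsewhere) and 40 CPM for Pcsk1 (91.2 to 162 elsewhere).

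Granule and release genes had a median SD of 0.21 over 18 genes. Without M01 it was 0.17, and 5 of the 18 were above the median over all genes without M01 (0.21). Snap25, a membrane fusion protein of nerve endings, was at 606 ± 49.1 per kb, Rab3a, a small GTPase of secretory vesicles, at 582 ± 96.3, Scg2, a granin, at 386 ± 51.9 and Vamp2, the vesicle fusion protein, at 351 ± 40.3. Ptprn, a membrane protein of dense-core granules, was at 191 ± 14.6 per kb. The granin Chgb was above Chga in 10 of 10 libraries (168 ± 14.5 against 132 ± 19.6 per kb, 1.28-fold, log2 ratio 0.36 ± 0.19, adjusted exact permutation p = 0.00326).

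**Figure D3:**
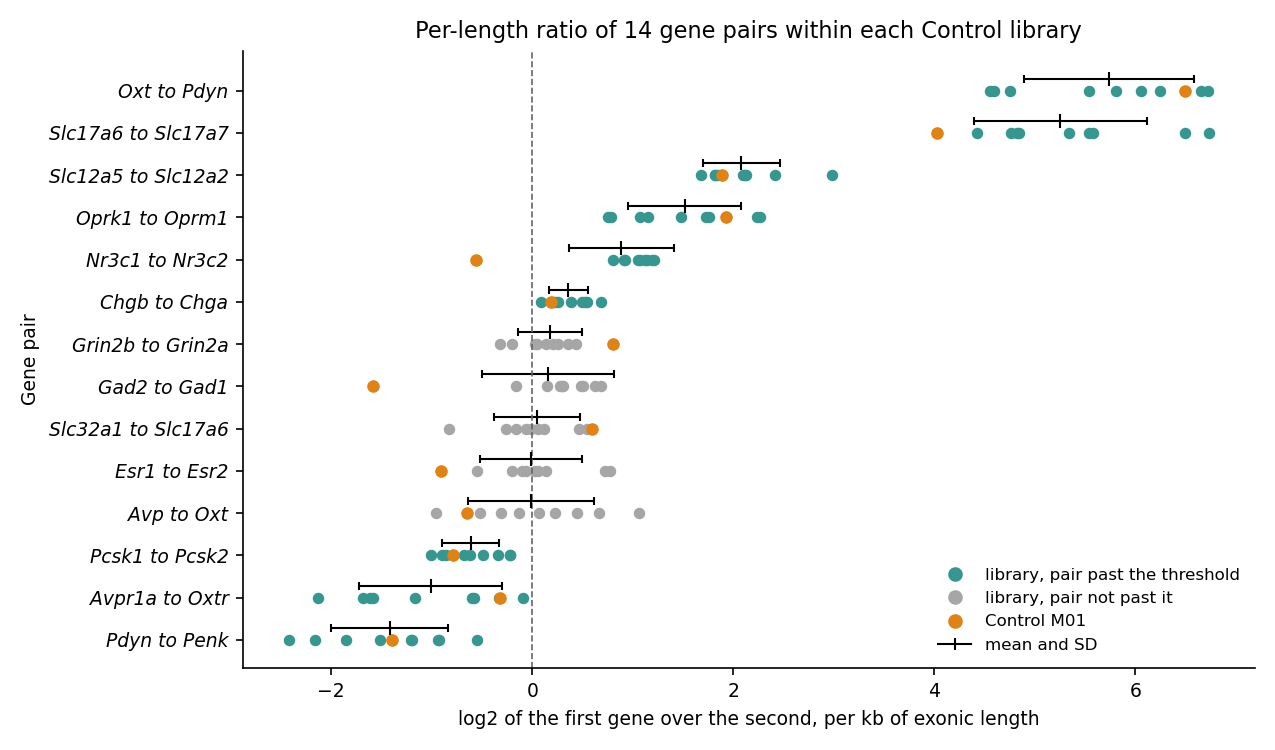
Log2 ratio of the levels per kb in 14 gene pairs, with 1 point per Control library (green where the pair passed the threshold, grey where it did not, M01 in orange) and the mean with its SD drawn above the points. In 8 pairs all 10 libraries lie on the same side of 0, and Avp to Oxt is spread on both sides from -0.96 to 1.06.

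In all, 16 gene pairs were listed, 15 could be tested and 10 passed an adjusted p of 0.05 in the exact sign-flip test. In 9 of these 10 all libraries had the same direction, each with an adjusted p of 0.00326. Penk was 2.67-fold above Pdyn (log2 ratio of Pdyn to Penk -1.42 ± 0.58). Slc17a6, the vesicular glutamate transporter of the hypothalamus and thalamus, was 38.2-fold above Slc17a7, that of the cortex (5.26 ± 0.86). Without M01 the same 10 pairs passed with the same direction, and Gad2 to Gad1 passed as well. The other pairs are given with their receptors and transporters.

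Of the oxytocin and vasopressin receptors, Oxtr (oxytocin) was at 4.34 ± 1.58 per kb and Avpr1a (vasopressin V1a) at 2.12 ± 0.659. Oxtr was above Avpr1a in 10 of 10 libraries (2.01-fold, log2 ratio of Avpr1a to Oxtr -1.01 ± 0.71, adjusted exact permutation p = 0.00326). In CPM Oxtr ran from 5.62 in M01 to 13.8 in M06 with a median of 8.03, and Avpr1a from 2.03 in F02 to 6.7 in F05 with a median of 4.86. The other vasopressin receptor genes, Avpr1b (V1b) and Avpr2 (the kidney type), averaged 0.0945 and 0.12 CPM, below what 3 counts give, so at this depth they were not detectable above the counting floor.

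Among the other peptide receptor genes the highest levels per kb were those of accessory proteins: Ramp1 at 502 ± 117 and Ramp3 at 285 ± 65.1, which pair with calcitonin-family receptors such as Calcrl (8.64 ± 3.03). Adcyap1r1, the PACAP receptor, was at 88.3 ± 19.4 and Ntsr2, a neurotensin receptor found on astrocytes, at 40.6 ± 15.3. Of the opioid receptors, Oprl1 (nociceptin) was at 23.9 ± 3.01, Oprk1 (kappa, the dynorphin receptor) at 21.7 ± 8.27 and Oprm1 (mu) at 7.71 ± 2.97. Oprk1 was 2.86-fold above Oprm1 (log2 ratio 1.52 ± 0.56, 10 of 10 libraries, adjusted exact permutation p = 0.00326). Of the 51 kept peptide receptor genes, M01 was lowest in 29 and highest in 5 (34.9% and 32.3% of all genes).

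Thra, a thyroid hormone receptor, led the hormone and nuclear receptors at 215 ± 17.2 per kb, followed by Nr1d1, a heme-binding repressor of the clock, at 24.2 ± 5.49. Nr3c1, the glucocorticoid receptor, was at 15.4 ± 4.74, and Insr, the insulin receptor, at 12.9 ± 3.81. Nr3c1 was 1.85-fold above Nr3c2, the mineralocorticoid receptor (log2 ratio 0.88 ± 0.52, adjusted exact permutation p = 0.00586), in 9 of 10 libraries, with M01 at -0.56. Nr3c1 was at 10.9 CPM in M01 and 52.1 to 69.8 in the others, and Nr3c2 at 18.9 in M01 and 27.9 to 36.7 in the others. The estrogen receptors Esr1 (1.6 ± 0.806 per kb) and Esr2 (1.51 ± 0.677) did not differ beyond the spread of their ratio (log2 -0.01 ± 0.51, adjusted exact permutation p = 0.957).

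Of the amine and acetylcholine receptors Htr2c, a serotonin receptor, was highest at 62.7 ± 16 per kb, then Hrh3, a histamine autoreceptor, at 36.9 ± 4.14, and the nicotinic subunits Chrna4 at 32.8 ± 6.82 and Chrnb2 at 25.3 ± 4.65. Adra1a and Adra1b, the alpha-1 noradrenaline receptors, were at 7.26 ± 2.45 and 6.25 ± 1.1 per kb. The genes that mark noradrenaline and serotonin cells themselves were near 0: Dbh averaged 0.0112 CPM and Slc6a4 0.0386 CPM.

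GABA receptor genes were led by Gabbr1, a GABA-B subunit, at 243 ± 32.9 per kb, and Gabrb2, a subunit of the GABA-A chloride channel, was at 52.7 ± 19. Slc12a5 (KCC2), which moves chloride out of neurons, was at 124 ± 24.3 per kb and Slc12a2 (NKCC1), which moves it in, at 29.3 ± 6.66. Slc12a5 was 4.23-fold above Slc12a2 (log2 ratio 2.08 ± 0.38, 10 of 10 libraries, adjusted exact permutation p = 0.00326). Gabrb2 was at 13.2 CPM in M01 and 104 to 189 CPM in the other 9, and M01 was lowest in 14 of the 16 kept GABA receptor genes (34.9% of all genes).

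Glutamate receptor genes were led by Grin1, the shared NMDA receptor subunit, at 108 ± 9.47 per kb, then the AMPA receptor subunits Gria2 at 76 ± 19.9, Gria1 at 71 ± 13.9 and Gria4 at 26.2 ± 1.79. Grin2b (5.01 ± 1.82) and Grin2a (4.68 ± 1.89), the regulatory NMDA subunits, did not pass (log2 ratio 0.18 ± 0.32, Grin2b above in 8 of 10, adjusted exact permutation p = 0.157). The GABA-making enzymes Gad2 (199 ± 64.6 per kb) and Gad1 (165 ± 19) did not pass either, with a log2 ratio of 0.16 ± 0.66 that was positive in 8 of 10 libraries and -1.58 in M01 (adjusted exact permutation p = 0.63). Without M01 the ratio was 0.35 ± 0.26 over 9 libraries, with an adjusted exact permutation p of 0.016, so the call for this pair rests on M01. Slc32a1, the vesicular GABA transporter, at 84.4 ± 13.5 per kb and Slc17a6 at 83 ± 18.5 were near even, each above the other in 5 libraries (log2 ratio 0.04 ± 0.43, adjusted exact permutation p = 0.856).

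Transcription factors known for magnocellular or hypothalamic neurons were all kept (21 of 21). Peg3 led them at 368 ± 119.6 per kb, with Arnt2, the partner of Sim1, at 46.4 ± 12.1, Otp, a homeobox gene of hypothalamic neuroendocrine cells, at 26.5 ± 9.92 and Bhlhe41, a clock-related repressor, at 23.4 ± 6.18. Peg3 was at 377 CPM in M01 and 2139.6 to 3117 CPM in the other 9. Sim1, needed for the formation of these neurons, was at 4.95 CPM in M01 and 15.1 to 47.2 elsewhere. Otp was at 11.8 CPM in M04 and 43.7 in M06 with a median of 32.3, and M04 and M06 were also the ends of the Trh range. Creb3l1, a factor bound to the Golgi that acts on Avp transcription, was at 9.41 ± 1.67 per kb, and Caprin2, whose protein binds the Avp transcript, at 7.61 ± 1.37.

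Genes of osmosensing and water transport spanned a wide range. Aqp4, the water channel of astrocytes, was at 126 ± 49.6 per kb and Tmem63b, a stretch-gated cation channel, at 41.4 ± 2.67. The channels Trpv1 and Trpv4, often named in osmosensing, were at 1.32 ± 0.457 and 0.57 ± 0.339 per kb, and Trpv2 was at 6.69 ± 1.47. In CPM Trpv1 ran from 1.73 (F01) to 6.37 (M04) with a median of 3.37 and Trpv4 from 0.834 (M06) to 4.12 (F05) with a median of 1.5. Nfat5, the tonicity-responsive transcription factor, was at 3.14 CPM in M01 and 28.6 to 50.9 CPM in the others, and Aqp4 at 45.8 CPM in M01 and 239.8 to 484 in the others.

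**Figure D4:**
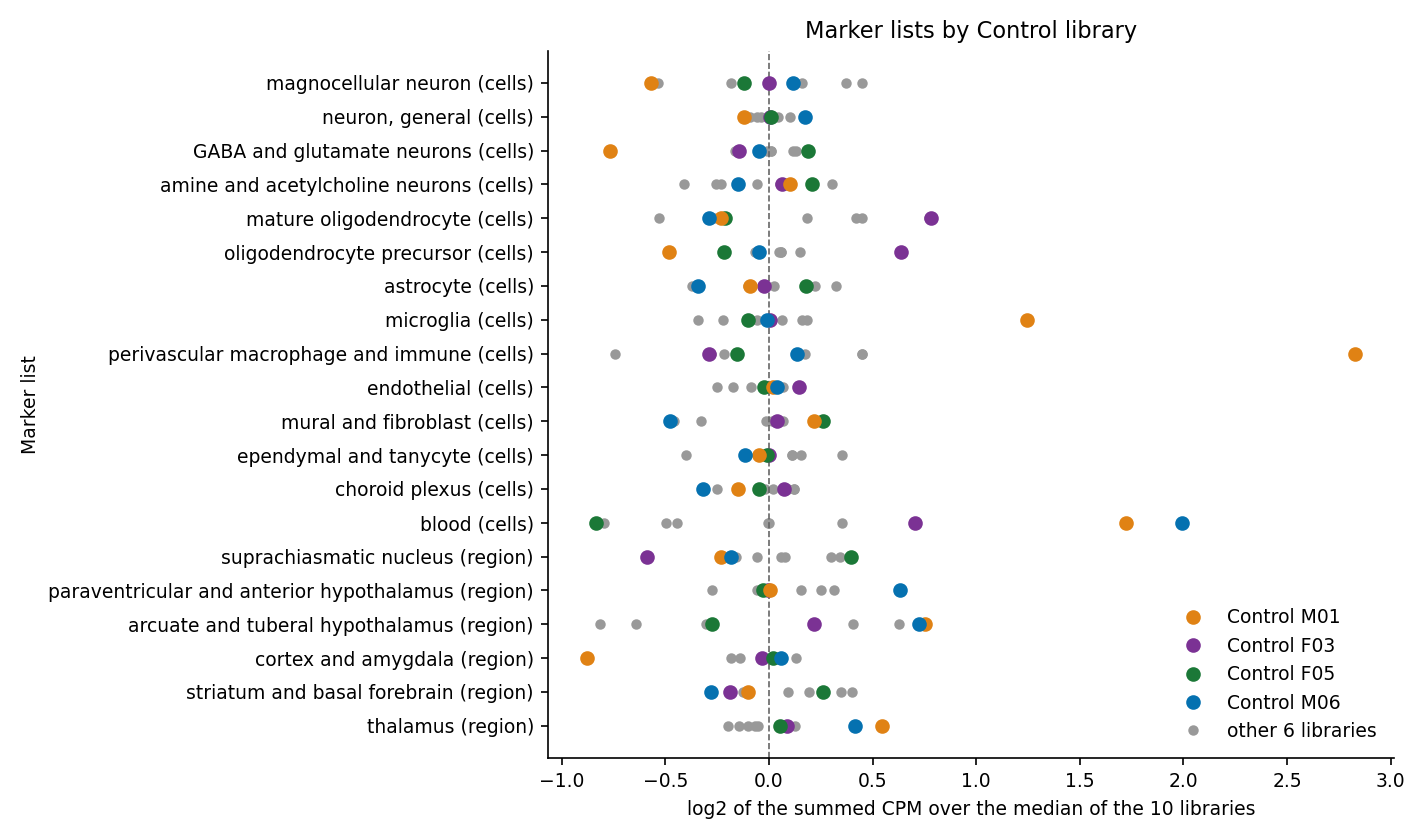
Log2 of the summed CPM of each marker or neighbouring-region list over the median of the 10 Control libraries, with 1 point per library and M01, F03, F05 and M06 in colour. M01 lies far right for microglia (746 CPM) and for the perivascular and immune list (718 CPM, of which Cd74 is 676). F03 lies far right for oligodendrocyte precursors (1291 CPM). F03 (6685 CPM) and M05 (6639) lead the mature oligodendrocyte list, and M06 (807) and M01 (671) lead blood. F05 (361 CPM) is highest for the suprachiasmatic list, close to M04 (348).

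Of the general neuron list, Snap25 (606), Uchl1 (606 ± 128), Thy1 (466) and Eno2 (451) led per kb, and the summed list was even, from 8829.9 CPM in M01 to 10830.2 in M06. The summed magnocellular list ran from 3034 CPM in M01 through a median of 4495 to 6140.4 in M05. Avp, Oxt and Peg3 are in that list. Without Peg3 the other 11 genes summed to 959 CPM in M04, a median of 2079, 2657 in M01 and 3863 in M05. M01, the lowest library in the full list, was thus place 3 from the top without Peg3, which was at 377 CPM in M01 and 2139.6 to 3117 elsewhere. Leaving out Peg3 here, and Cd74 from the immune list, was chosen after their values were seen.

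Among mature oligodendrocyte markers Cnp, a myelin enzyme, was at 229.5 ± 62.9 per kb, Mag, a myelin adhesion protein, at 216 ± 65.1 and Cldn11, a tight-junction protein of myelin, at 163. Cnp was at 385 CPM in F02, a median of 559 and 844 in F03, and Mag at 288 CPM in M06, a median of 453 and 694 in F03. The 10 mature markers summed to 2689.5 CPM in F02, a median of 3890.3, 6639 in M05 and 6685 in F03. Without M01 all 10 had an SD of log2 CPM above the median over all genes (0.21). The libraries thus differed in their share of oligodendrocyte transcripts, with F03 and M05 at the top. F03 was also highest in 9 of 13 genes of oligodendrocyte precursors, among them Bcas1 (269.7 CPM, median 205) and Olig1 (83.8 CPM, median 44.1), where it was highest in 10.7% of all genes.

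Astrocyte markers were led by Aldoc (363 ± 37.2 per kb), a glycolytic enzyme, Gfap (327 ± 189), the intermediate filament, Agt (257 ± 27.5), angiotensinogen, and Mlc1 (155 ± 23.1), a membrane protein of astrocyte end-feet. The 16 genes summed to 3897 CPM in M04, a median of 5049 and 6326 in F06. Gfap was at 1258 CPM in F01, 1388 in F02, 483 in F03, 1303 in F05, 1894 in F06, 957 in M01, 877 in M03, 103 in M04, 997 in M05 and 249 in M06. M04 and M06 were low and F06 high, a spread far beyond that of Aldoc (652 to 938 CPM) and Agt (552 to 820.3 CPM).

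Microglial genes were low per kb, with C1qa at 29.4 ± 33.5, Laptm5 at 25.2 ± 4.88 and C1qc at 17.1. The 14 genes summed to 746 CPM in M01 and to 248 to 358 CPM in the others. C1qa and C1qc, complement subunits, were at 149.8 and 100.3 CPM in M01 and at 15 to 29.5 and 7.52 to 19.9 elsewhere, whereas Laptm5, a lysosomal protein of leukocytes, was at 66.7 in M01 and 34.2 to 54.8 elsewhere. Cd74, the invariant chain of class II antigen presentation, was at 676 CPM in M01 and 41.9 to 110 CPM in the other 9. It carried most of the perivascular and immune list, whose other 7 genes summed to 42.5 CPM in M01 and 18.4 to 35.6 CPM elsewhere. M01 also held 956 CPM of the 12 interferon-stimulated genes in the table, against 212 to 452 CPM in the others, with Isg15 at 174 CPM against 4.65 to 40.6.

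Among vessel, lining and blood markers, Slc2a1, the glucose transporter of brain endothelium, was at 49.8 ± 3.93 per kb and Cldn5, a tight-junction protein, at 49.1 ± 18.7. Ptgds, a prostaglandin synthase of meninges and oligodendrocytes, led the mural and fibroblast list at 587 ± 183, and Rgs5, a pericyte gene, was at 48 ± 10.4. Of the choroid plexus list Enpp2, which oligodendrocytes also make, was at 71.5 ± 7.68, but the defining Ttr averaged 0.434 CPM (0 to 1.55) and Kcne2 0.0966 CPM. Hba1, a hemoglobin gene, was at 783 CPM in M06 and 110.1 in F05 with a median of 197. Of the pituitary list only Pomc was kept (13.6 ± 5.44 per kb), and Prl was at 21.8 CPM in M01 and at most 1.12 CPM elsewhere.

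Genes of neighbouring regions were present at levels that differed by library. The 11 suprachiasmatic genes in the table summed to 182 CPM in F03, a median of 274, 337 in F02, 348 in M04 and 361 in F05. F05 was highest in 7 of the 10 kept, and in 8.25% of all genes. Rgs16, a regulator of G-protein signalling in that nucleus, was at 52.3 CPM in F05 with a median of 15, and Nms, neuromedin S, at 6.11 CPM in F05 with a median of 2.11. The paraventricular and anterior hypothalamic list summed to 425 CPM in M04, a median of 515 and 799 in M06. In M06 3 of its 12 genes were highest (Trh, Otp and Sim1) and 6 were lowest, where M06 was highest in 8.55% and lowest in 8% of all genes.

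The tuberal list, which holds Hcrt and Pmch, summed to 66.5 CPM in F06, a median of 117 and 197 in M01. Lhx6, an interneuron and zona incerta factor, was at 72 CPM in M04 with a median of 26.1. Neurod6, of cortical pyramidal neurons, averaged 0.378 CPM. Ppp1r1b, a striatal phosphoprotein, was at 42.4 ± 11.3 per kb. The part of these neighbouring cells in the spread of Avp and Oxt was not tested.

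**Figure D5:**
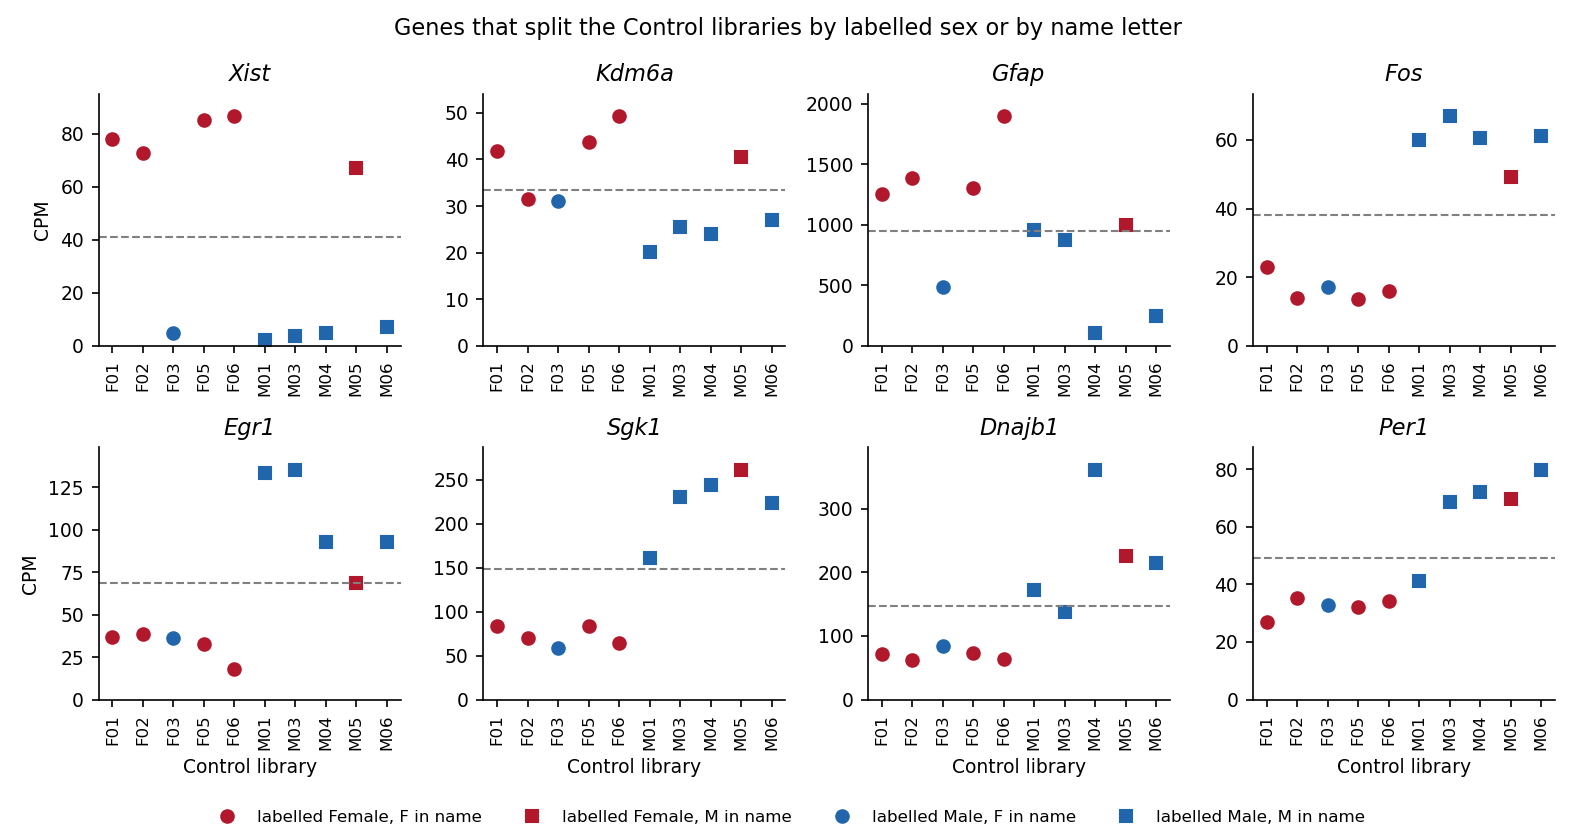
Levels in CPM, on axes from 0, of 8 genes by Control library, with colour for the labelled sex (red, female; blue, male), shape for the letter in the name (circle, F; square, M) and a dashed line at the mean. Xist follows the labelled sex, with 66.9 to 86.5 CPM in libraries labelled female and 2.28 to 7.03 in those labelled male, and Fos follows the letter, with 13.8 to 22.9 CPM in F libraries and 49.1 to 66.8 in M libraries.

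Over 15137 genes the median SD of log2 CPM was 0.30 with all libraries and 0.21 without M01, and an SD over 1 was reached by 283 genes (1.87%), or 83 without M01. Of the 100 genes with the largest SD, 81 had their highest or lowest value in M01, 45 had no name and 14 lay on the 2 repeat-rich contigs. By SD the named genes that led were Xist (2.21), the RNA that silences an X chromosome, Alb (2.21), albumin, and Trhr (1.89), a receptor of thyrotropin-releasing hormone. Trhr was at 0 in M01, where 3 counts equal 0.286 CPM, and at 6.42 to 16 CPM elsewhere, and its SD of log2 CPM without M01 was 0.45. Of the first 100 genes with M01, 45 were among the first 100 without it.

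Without M01 the largest SDs among named genes were those of Xist (2.08), Alb (1.88), Pglyrp4 (1.79), a peptidoglycan recognition protein, Vip (1.79), Chrna1 (1.54), the muscle nicotinic subunit, Stkld1 (1.53), Hcrt (1.42), Gfap (1.37) and Pmch (1.37). Alb was at 23.6 CPM in F03 and 22.9 in M05 and at most 5.96 in the others. These are also the libraries with the highest summed list of mature oligodendrocyte markers. The 100 genes with the largest SD without M01 are 0.661% of all 15137. The listed genes among them were Edn3, Hcrt and Pmch (3 of 18 measured precursors of other hypothalamic peptides), Vip (1 of 17 magnocellular precursors), Fos and Fosb (2 of 28 immediate-early genes), Vdr (1 of 22 hormone receptors), Oas2 (1 of 11 interferon-stimulated genes), Enpp6 (1 of 13 oligodendrocyte precursor genes), Gfap (1 of 16 astrocyte genes), Alas2 (1 of 2 blood genes) and Xist.

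M01 was highest in 4892 and lowest in 5284 of the 15137 genes. It lay at least 4-fold above the next library in 56 genes (0.37%) and at least 4-fold below in 418 (2.76%). The latter had a median exonic length of 3118 bases, against 2291 over all the genes at this level. Among listed genes those at least 4-fold below the next library included Map2, a dendritic cytoskeletal protein (194 CPM in M01, 1134 to 1612 elsewhere), Nr3c1 and Prlr among 3 of 22 hormone receptors, Gabrb2 among 2 of 15 GABA receptor genes, Grik3, Grin2a and Grm5 (3 of 23 glutamate receptor genes), Aqp4, Slc1a2 and Slc4a4 (3 of 16 astrocyte genes) and Peg3.

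Listed genes at least 4-fold above the next library in M01 were Isg15, Irf7 and Bst2 (3 of 11 interferon-stimulated genes), C1qa, C1qb and C1qc (3 of 14 microglial genes) and Cd74. Gbp5 and Gbp7, guanylate-binding proteins induced by interferon and chosen after their values were seen (Gbp7 also falls under the rule for variable genes), were at 554 and 137 CPM in M01 and at 10.4 to 26.4 and 1.77 to 5.14 CPM elsewhere. The repeat contigs, the low total count and these genes moved together in M01, and their part in each other was not tested. F03, the other library with many counts on those contigs, had no gene 4-fold from the next library in either direction. Neither had M05, the library with the next lowest total count (11303717).

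By smaller factors M01 lay above the others in Ramp1 (919.7 CPM against 418 to 605), Ramp3 (559 against 284 to 399), Ntsr2 (117 against 34.1 to 71), Scg5 (464 against 247 to 306), Rab3a (1058 against 603 to 781) and Uchl1 (1220.4 against 632 to 834). It lay below them in Htr2c (65.2 CPM against 143 to 214), Chrnb2 (33.9 against 60.1 to 77.3), Adcyap1r1 (109 against 206 to 292), Gria2 (96.1 against 284 to 390.3), Slc12a5 (309 against 576 to 742), Insr (19.2 against 56.6 to 89.5) and Arnt2 (54.3 against 148 to 211).

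Libraries labelled female and male could be compared as 5 against 5, and this is given as counts with no test. In 140 of 15137 genes (0.925%) the levels of the labelled sexes did not overlap, 80 higher in females (0.529%) and 60 higher in males (0.396%), and without M01 272 genes (1.8%) did not overlap. Scaled by library totals without TMM factors, 171 genes (1.13%) did not overlap, 144 higher in females and 27 higher in males. The split between the 2 directions thus depends on the scaling. Xist was at 66.9 to 86.5 CPM in the libraries labelled female, M05 among them, and at 2.28 to 7.03 in those labelled male, F03 among them. It therefore followed the sex label and not the letter of the name or the sex in the title. Kdm6a, an X-linked histone demethylase, was at 31.5 to 49.2 CPM in females and 20.2 to 31 in males. Of the 4 genes of the sex-linked list at this level, these 2 were apart. Ddx3x (mean 385 CPM) and Kdm5c (mean 140.3 CPM), also of that list, overlapped between the labelled sexes. Of the 80 genes higher in females 8 (10%) lay on the X chromosome, which holds 4.02% of the genes at this level. None of the 6 genes on the Y chromosome at this level was apart. An unnamed gene on the contig JAJGSA010000006.1, ENSJJAG00000026721, was at 14.2 to 21.6 CPM in males and 0 to 1.48 in females. Its mean log2 gap of 5.77 was wider than that of Xist (4.13).

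Of the 16 astrocyte markers only Gfap was apart between the labelled sexes (997 to 1894 CPM in females, 103 to 957 in males). Npas4, an immediate-early gene of neurons, was higher in males (2.73 to 5.14 against 0.393 to 1.99 CPM), 1 of 28 such genes. None of the 17 measured magnocellular precursors, Avp and Oxt included, and none of the 42 peptide receptors was apart with all 10 libraries, where 0.925% of all genes were. Without M01, 1 of the 17 magnocellular precursors and 1 of 18 other hypothalamic precursors were higher in females. In that split 173 of all 15137 genes were higher in females, and 272 (1.8%) were apart in either direction.

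The letter in the library name, whose meaning beyond sex the labels do not give, set more genes apart than the sex label did. In 398 genes (2.63%) the F and M libraries did not overlap, 188 higher in F (1.24%) and 210 higher in M (1.39%), and without M01 638 genes (4.21%) did not, 325 of them higher in M (2.15%). Among those higher in M were 7 of 28 immediate-early genes, which neurons switch on within minutes of activity: Arc, Egr1, Fos, Fosb, Gadd45b, Junb and Per1. So were 7 of 22 heat shock chaperones (Bag3, Dnaja1, Dnajb1, Dnajb4, Hsp90aa1, Hspa8 and Hsph1) and 6 of 14 glucocorticoid-responsive genes (Cdkn1a, Gjb6, Klf15, Nfkbia, Per1 and Sgk1). Without M01 the counts were 9, 9 and 7.

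Fos, the usual marker of recent neuronal activity, was at 22.9 CPM in F01, 14 in F02, 17.1 in F03, 13.8 in F05 and 16 in F06, and at 59.8 in M01, 66.8 in M03, 60.4 in M04, 49.1 in M05 and 61.1 in M06. The lowest M library was above the highest F library, and F03 and M05 went with their letter. Egr1, another activity-induced factor, was at 18.2 to 38.7 CPM in F and 68.4 to 135 in M. Sgk1, a kinase induced by glucocorticoids, was at 58.7 to 84 CPM in F and 161 to 261 in M, and Dnajb1, a chaperone induced by heat shock, at 62.9 to 84.6 in F and 137 to 361 in M. Of the 19 clock genes Nfil3 and Per1 were higher in M and Nr1d1 in F. Nkx6-1, a homeobox gene, was higher in F (2.95 to 5.43 CPM in F, 0.344 to 2.44 in M).

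None of the 17 magnocellular and 18 other measured peptide precursors and none of the 42 peptide receptors was apart by letter with all 10 libraries, where 2.63% of all genes were. At that share few genes of such lists would be apart, so their absence is not a result about these lists. Without M01, 1 of the 42 peptide receptors was higher in F, where 4.21% of all genes were apart. The baseline levels of Avp, Oxt and Pdyn overlapped between the letters and between the labelled sexes over all 10 libraries. Whether the letter stands for a day, an order of dissection or something else is not stated in the labels, and its part in the spread of the other genes was not tested.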

How the data were processed

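Fragment counts per gene were deposited by the authors; per the file headers featureCounts 1.6.2 counted read pairs over Ensembl's genes for mJacJac1 with no strand option, so overlapping and antisense genes cannot be told apart. The reads were placed by an aligner not given in the sources used here. FastQC and DESeq2 also appear in the submitters' processing notes. The authors' deposited tables of treatment comparisons served for gene names only: their mean normalized signal per gene and 56 columns of values per library were not used.

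Of 29170 genes, 9699 were named by the authors and 5594 from RefSeq genes of the same assembly (overlap of at least 0.5 of both spans); 13877 had no name, and the 2 sources gave the same name for 96.57% of 8787 genes. Genes were filtered with filterByExpr on the treatment group and scaled by TMM over all 29 libraries in edgeR 4.0.16 (R 4.3.3). This kept 17558 genes, and those removed held 0.0813% of the Control counts. A level per kb is CPM divided by the exonic length in the count file. Log2 values had 2 counts added. Ratios of gene pairs were tested with all 1024 sign flips, correlations with 100000 permutations, both two-sided with Benjamini-Hochberg adjustment (Python 3.11.15, numpy 2.4.6, pandas 2.3.3, scipy 1.17.1). The ranking by SD and the sign-flip test were tested on simulated data, and the overlap step was not. Figures were drawn with matplotlib 3.10.9. Alternatives used library totals, TMM factors from the Control libraries, DESeq2 1.42.0 size factors, 0.5 added counts, other measures of spread, no minimum level, or left out M01.

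Groups and sex come from the labels, with the sex label used where the titles of F03 and M05 go against it. Single housing and numbered samples in the labels were read as 1 animal per library. If libraries shared animals, the p-values would measure technical spread. The Control libraries and the gene lists were chosen with earlier results of these data known. Named genes are Avp, Oxt and Pdyn, the 20 highest per kb, the 10 with the largest share of counts, the leading 4 and the extreme defining markers of each list, the listed gene pairs, the 15 with the largest SD with and without M01, and sex-linked genes. Other genes named in the text were chosen after their values were seen. Mbp and Drd1 pairs were not analysed here, and some genes, with 1 tested pair, are not reported here. With 10 libraries of at least 10797577 counts, a gene at 3 counts in a library lies between 0.167 and 0.286 CPM. This floor and the counting SDs cover counting error only.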

Additional observations from a re-analysis of the deposited data

Results flagged for a closer look

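A value was marked where the gap between the highest or lowest of the 10 Control libraries and its nearest neighbour was a large share of the whole range by Dixon's 95% limit, for 134 genes of the text and the summed marker lists. Chance flags about 1 in 20 groups of values that were not picked for their spread. Some of these genes were named for a large SD or after their values were seen, and all share the same libraries. The share was taken on CPM and not on log2 CPM. The number of marked values is therefore not set against that rate. In all 50 values were marked, 38 of them in M01. The numbers in brackets are that share of the range.

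In libraries other than M01 the marked genes were Avp in M05 (0.592; 2423 CPM, 359 to 1202 in the others), Trh in M06 (0.601), Adcyap1 in M06 (0.548), Hcrt in F01 (0.496), Vip in F05 (0.51), Rgs16 in F05 (0.664), Stkld1 in F05 (0.679; 15.7 CPM, 0.401 to 5.31 in the others), Tmem63b in F02 (0.553), Trpv1 in M04 (0.503) and Olig1 in F03 (0.609), each the highest. The summed oligodendrocyte precursor list (0.534) and the summed mitochondrial genome (0.527; 42404 CPM, 25551 to 33526 in the others) were highest in F03. F05 thus stood out in Vip and Rgs16, genes of the suprachiasmatic nucleus, and M06 in Trh and Adcyap1.

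M01 was highest in immune genes: Gbp7 (0.975), Gbp5 (0.971), C1qa (0.892), Cd74 (0.892), C1qc (0.867) and Isg15 (0.788). It was highest in the summed perivascular and immune list (0.882), where 676 of its 718 CPM are Cd74, named above, and in the summed microglial (0.779), pituitary (0.716; 42.3 CPM, 6.56 to 16.7 in the others) and interferon-stimulated (0.677) lists. M01 was also highest in Scg5 (0.73), Uchl1 (0.657), Calm2 (0.638), Ramp1 (0.626), Rab3a (0.609), Ubb (0.593), Ramp3 (0.583), Ntsr2 (0.555), Aldoc (0.491) and Creb3l1 (0.479).

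M01 was lowest in the receptor and transporter genes Nr3c1 (0.7), Gria2 (0.638), Slc12a5 (0.617), Chrnb2 (0.603), Insr (0.532), Adcyap1r1 (0.531), Htr2c (0.523), Gabrb2 (0.518), Nr3c2 (0.503) and Adra1a (0.469). It was lowest in Map2 (0.663), Peg3 (0.643), Arnt2 (0.601), Nfat5 (0.534) and Pcsk2 (0.514) too, and in the summed lists of magnocellular transcription factors (0.63), cortex and amygdala (0.613) and GABA and glutamate neurons (0.556).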

How the results depend on the processing

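The mean CPM of 192 named genes moved by at most 2.54% with library totals, 0.98% with TMM factors from the Control libraries alone and 0.847% with DESeq2 size factors. Without M01, 182 stayed within 1.5 times and 10 did not, among them Gbp7 (17 to 3.67 CPM), Isg15 (27 to 10.6), Cd74 (136 to 75.8), C1qa (35.5 to 22.8) and C1qc (22.7 to 14.1). Adding 0.5 in place of 2 counts moved no pair ratio or correlation across its threshold or past 0. Without M01 the log2 ratio of Gad2 to Gad1 went from 0.16 to 0.35 (adjusted p from 0.63 to 0.016), and ratios near 0 changed sign with no call on either side: Avp to Oxt from -0.01 to 0.06, Esr1 to Esr2 from -0.01 to 0.09 and Slc32a1 to Slc17a6 from 0.04 to -0.02. Without M01 the correlation of Oxt with Pcsk1 went from -0.10 to 0.57 and with Cartpt from 0.05 to -0.10, and with deviations from the mean of the name letter that of Oxt with Fos went from -0.28 to 0.22, none past the threshold. Without M01, 272 genes in place of 140 did not overlap between the labelled sexes and 638 in place of 398 between the letters. With 4 libraries in place of 5 on the M side fewer must stand clear, so such counts rise by construction. With library totals and all 10 libraries 171 genes did not overlap between the labelled sexes, 144 higher in females and 27 in males. Between the letters 356 did not, 155 higher in F and 201 in M. Of the 100 genes with the largest SD, 45 were shared without M01, 22 with the median absolute deviation, 65 with edgeR's biological coefficient of variation and 59 with no minimum level. The cause was not tested. No paired analysis was possible because only the Control group was described and no contrast between groups was tested. Depth limits genes near the floor of 3 counts, among them Avpr1b, Avpr2, Ttr and Dbh.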
